A study of Mus musculus with 2 samples.

Results

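Malat1, Neat1, Kcnq1ot1 and Gm26917 are long non-coding RNA genes, and the products of the first 3 are known to stay in the nucleus. These 4 genes of the 31053 in the count table were chosen by name and selected on earlier results of these data, namely their levels by barcode, cell class and mitochondrial share, and all 4 were detected in both libraries. Their counts were followed over single-cell barcodes of perfused mouse liver, by cell class and by the share of UMIs (unique molecular identifiers, each counting 1 captured transcript) that came from mitochondrial genes. Their levels are therefore descriptions and carry no test. The control library came from a LaptTA;WT mouse, which carried the tTA transactivator under the liver-restricted LAP promoter and no tet-YAP transgene. The tetYAP 4W library came from a LaptTA; tetYAP mouse, which carried the same driver and a tet-driven YAP S127A transgene, for 4 weeks after doxycycline was withdrawn. Both mice were on the C57BL/6 background, mice of this strain were kept on doxycycline food until 4 weeks of age, and whether the control mouse also came off doxycycline is not given in the sources used here. Each group held 1 library of cells labelled as hepatocytes. The labels name 2 versions of the reagent kit, and the study's methods give v3 for perfused liver.

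Malat1 is one of the most abundant RNAs of the nucleus and gathers at nuclear speckles, the bodies that store splicing factors. Neat1 is the scaffold of paraspeckles, which hold RNA-binding proteins such as NONO and SFPQ, and Kcnq1ot1 is an antisense RNA, made from the paternal allele, that silences the imprinted Kcnq1 domain in cis. Since such RNAs stay in the nucleus, their counts are commonly read as a sign that a barcode holds one. Whether the barcodes held nuclei was not measured here. In the GRCm38.p6 annotation of RefSeq, Malat1 lies on chromosome 19 from 5795690 to 5802672 and Neat1 on the same chromosome from 5824708 to 5845480. Kcnq1ot1 lies on chromosome 7 from 143213111 to 143296547, antisense within Kcnq1. All 3 are annotated as lncRNA genes, and Gm26917, a predicted gene, had no entry in the RefSeq table.

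Start regions of 2 members, Malat1 and Kcnq1ot1, were given in RefSeq (GRCm38.p6). They are shown as background, since YAP acts on promoters and enhancers through TEAD factors. The study found YAP peaks mostly in distal regions. Whether YAP or TEAD factors act on these 2 regions was not tested. The Malat1 region is chr19:5802623-5802922 and the Kcnq1ot1 region is chr7:143296498-143296797, both on the minus strand and printed 5′ to 3′ along the transcribed strand. Capitals mark the CCAAT box (CCAAT, or ATTGG for the other strand).
Malat1: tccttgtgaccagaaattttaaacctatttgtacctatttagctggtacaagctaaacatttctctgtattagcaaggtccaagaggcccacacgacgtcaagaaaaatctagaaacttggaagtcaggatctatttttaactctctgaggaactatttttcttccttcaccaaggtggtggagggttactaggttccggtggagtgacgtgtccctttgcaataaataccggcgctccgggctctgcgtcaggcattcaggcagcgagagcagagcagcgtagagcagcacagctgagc
Kcnq1ot1: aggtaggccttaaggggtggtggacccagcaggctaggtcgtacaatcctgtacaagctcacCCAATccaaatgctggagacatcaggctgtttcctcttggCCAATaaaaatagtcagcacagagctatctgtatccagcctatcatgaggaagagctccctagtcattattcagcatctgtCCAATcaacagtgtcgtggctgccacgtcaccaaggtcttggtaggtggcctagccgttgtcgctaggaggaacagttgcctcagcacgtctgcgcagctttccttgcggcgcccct
The Kcnq1ot1 region held 3 CCAAT boxes, and 3.37% of the 32851 regions of the same length in RefSeq held 3 or more. The Malat1 region held 0, while 37.4% of all regions held at least 1. The TEAD core motif, searched as GGAATG and its complement CATTCC, was found 0 times in either region and at least once in 14.7% of all regions.

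The control library held 2989 barcodes with a median of 3117 UMIs, and the tetYAP 4W library 1524 barcodes with a median of 4150. Mitochondrial genes gave a median of 28.1% of UMIs in the control and 37.7% in tetYAP 4W. Levels are therefore given per 10000 nuclear-genome UMIs (all UMIs but the mitochondrial ones), or as CPM (UMIs of a gene scaled to a common total of UMIs of all genes) where stated. Barcodes were clustered without the 4 members and without mitochondrial genes. A cluster took the name of a class when 3 or more of its markers stood out, and clusters in which no other class stood out were called hepatocyte-like. There were 2811 such barcodes in the control (clusters 0 to 4) and 710 in tetYAP 4W (clusters 13 and 14), and all 12 hepatocyte markers were found in each of these clusters. Hepatocyte markers were not confined to them: their summed level was 1131 to 1155 per 10000 in clusters 0 to 3, 870 in cluster 4, 915 in cluster 13 and 1681 in cluster 14, and 841 and 900 in the erythroid-like barcodes of the control and of tetYAP 4W. The leading genes of cluster 14 included Pnlip, Prss2 and Ctrb1, which encode pancreatic enzymes. A doublet caller marked 0.301% and 0% of barcodes, too few to be relied on, so doublets remain. The libraries shared 0 barcode sequences. Y-linked genes gave 716 UMIs in the control and 0 in tetYAP 4W, so sex and genotype cannot be told apart. With 1 library per group no difference between groups has a replicate check, intervals are exact 95% intervals for counting error only, and in summed counts fewer cells of a type and less RNA per cell cannot be told apart.

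Most hepatocyte-like barcodes held very little Malat1, and a small number held a great deal. The 2811 control barcodes ran from 0 to 176 Malat1 UMIs with a median of 2, and the 710 of tetYAP 4W from 0 to 752 with the same median. The medians in UMIs were thus equal, while the highest values differed. In the control 33 barcodes (1.17%) held 10 or more Malat1 UMIs, and in tetYAP 4W 64 did (9.01%). The 141 control barcodes with the most Malat1, 5% of the class, carried 34.4% of its Malat1 UMIs, and the corresponding 36 of tetYAP 4W carried 66.2%. Malat1 was absent from 18.8% of the control and 10.6% of the tetYAP 4W hepatocyte-like barcodes. Barcodes thinned to 1000 UMIs lacked Malat1 in 56.9% of cases in the control (55.0 to 58.7%, with 23 shallower barcodes left out) and in 52.5% in tetYAP 4W (48.8 to 56.3%, with 0 left out). At 1000 nuclear-genome UMIs the shares lay further apart, at 44.9% and 26.9%. Outside the hepatocyte-like class the median was 13 Malat1 UMIs in the control and 22 in tetYAP 4W, with highest values of 105 and 172, both below the highest hepatocyte-like barcode of the same library.

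**Figure D1:**
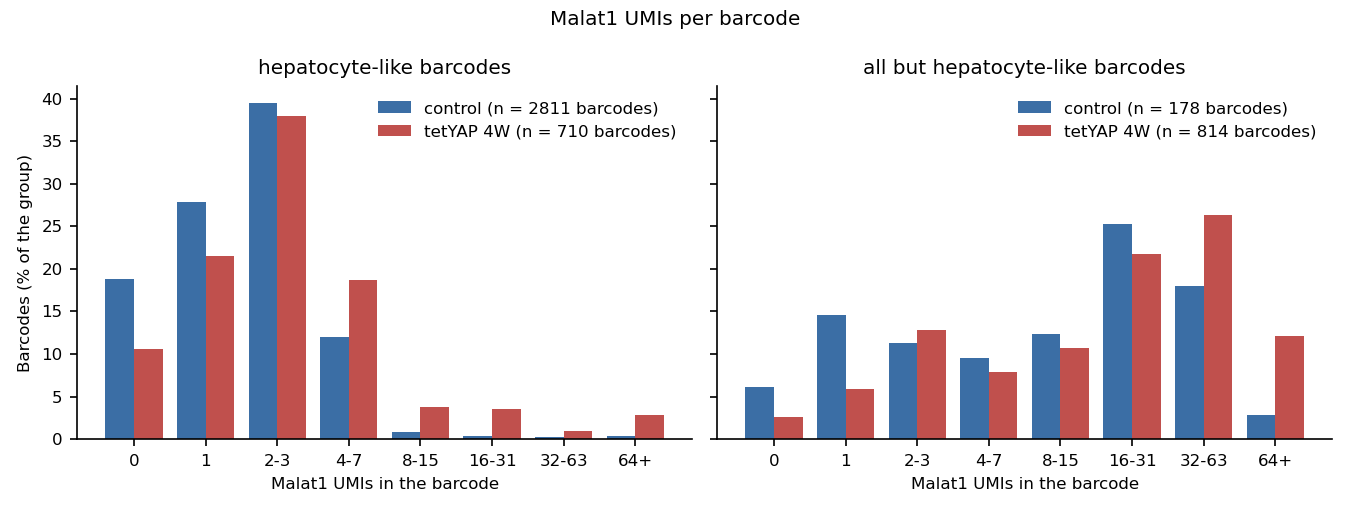
Percent of barcodes (vertical axis) by number of Malat1 UMIs in the barcode (horizontal axis), for hepatocyte-like barcodes at left and all other barcodes at right, with the control in blue and tetYAP 4W in red. Hepatocyte-like barcodes of both libraries pile up at 3 UMIs or fewer, and 64 or more were held by 11 control and 20 tetYAP 4W barcodes.

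The barcode with the most Malat1 in tetYAP 4W held 752 Malat1, 52 Neat1, 8 Kcnq1ot1 and 11 Gm26917 UMIs among 7493, so that Malat1 made up 11.3% of its nuclear-genome UMIs. The next barcodes held 444 and 430 Malat1 UMIs, with 13 and 15 of Neat1. In the control the leading barcode held 176 Malat1 and 17 Neat1 UMIs among 5500, or 4.04% of its nuclear-genome UMIs as Malat1. Each of the 5 leading barcodes of each library also held albumin mRNA, with 52 to 81 Alb UMIs in the control and 133 to 174 in tetYAP 4W. Their mitochondrial shares ran from 14.9% to 42.9% and from 8.40% to 32.5%.

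The other members were detected more often in barcodes with much Malat1. Among control hepatocyte-like barcodes with 10 or more Malat1 UMIs, 29 of 33 held Neat1 (87.9%, 71.8 to 96.6%), against 9.58% of the 2778 with fewer. In tetYAP 4W 61 of 64 held Neat1 (95.3%, 86.9 to 99.0%), against 18.0% of the other 646. Kcnq1ot1 was found in 42.4% of the 33 control barcodes and 73.4% of the 64 of tetYAP 4W, against 0.864% and 6.35% of the rest. Gm26917 was found in 51.5% and 89.1%, against 1.48% and 5.26%. Their UMIs were not confined to these barcodes: in the control those with under 10 Malat1 UMIs carried 59.7% of Neat1, 55.3% of Kcnq1ot1 and 55.8% of Gm26917 UMIs of the class, and in tetYAP 4W 24.4%, 23.6% and 19.4%. In tetYAP 4W the 64 barcodes and the rest had medians of 3890 and 4050 UMIs and of 30.2% and 58.2% mitochondrial UMIs. In nuclear-genome UMIs the 64 were deeper, with medians of 2182 for 10 to 29 and 2970 for 30 or more Malat1 UMIs, against 1673 to 1907 for fewer. In the control the 33 were deeper, with medians of 4199 and 3095 UMIs, and their mitochondrial share was 25.6% against 28.2%. The part of depth and mitochondrial share in these differences was not tested. Outside the hepatocyte-like class the members overlapped less: of the 554 tetYAP 4W barcodes with 10 or more Malat1 UMIs, 62.1% held Neat1, 25.8% Kcnq1ot1 and 25.5% Gm26917.

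Most of these hepatocyte-like barcodes lay in 1 cluster of each library, with 28 of 33 in cluster 4 of the control and 60 of 64 in cluster 13 of tetYAP 4W. These clusters are called Malat1-rich here because each had the highest Malat1 count per barcode among the hepatocyte-like clusters of its library, so their Malat1 level is no finding. Cluster 4 (132 barcodes) held 1687 Malat1 UMIs, or 61.0 per 10000 nuclear-genome UMIs (58.2 to 64), with a median of 3 per barcode. Cluster 13 (74 barcodes) held 4395, or 237 per 10000 (230 to 245), with a median of 22 per barcode and none without Malat1. In cluster 4 most barcodes were thus low, whereas in cluster 13 most, 60 of 74, held 10 or more. Clusters 0 to 3 of the control stood between 8.16 and 9.23 per 10000, and cluster 14 of tetYAP 4W at 13.2 (12.6 to 13.9) with at most 27 Malat1 UMIs in a barcode.

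Mature red cells have no nucleus, and erythroid-like barcodes give a background for these levels. The 38 of tetYAP 4W held 90 Malat1 UMIs, or 9.52 per 10000 nuclear-genome UMIs (7.65 to 11.7). Malat1 was detected in 84.2% of them at a median of 3390 UMIs, and in 88.2% of cluster 14 at a median of 4058. At a common 1000 UMIs detection was 55.3% (38.3 to 71.4%) against 42.1% (38.3 to 46.1%), with overlapping intervals, so on the scale of all UMIs detection in cluster 14 did not exceed background. By CPM the erythroid-like barcodes stood at 651, from 90 UMIs, and cluster 14 at 572, within the counting error of that value. Per nuclear-genome UMI cluster 14 was above them, at 13.2 against 9.52 with intervals apart. The median mitochondrial share was 58.1% against 28.2%, so whether cluster 14 stood above this background depends on the scale. In the control, thinned detection was 38.5% to 44.3% in clusters 0 to 3 and 66.4% in cluster 4, and the 4 erythroid-like barcodes held 3 Malat1 UMIs in all, too few for a background of that library.

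Among the other classes of tetYAP 4W, Malat1 was highest in B cell-like barcodes, at 140 per 10000 nuclear-genome UMIs (133 to 146). Neutrophil or monocyte-like barcodes stood at 115 (111 to 119), endothelial-like at 113 (110 to 116) and T or NK cell-like at 107 (104 to 110), and each interval met that of its neighbour. Macrophage-like barcodes followed at 77.3 (75.4 to 79.3), then stellate or mesenchymal cell-like barcodes at 50.8 (48.3 to 53.4), apart from each other and from the rest by counting error. In the control, endothelial-like barcodes stood at 57.9 (55.4 to 60.5) and macrophage-like at 55.2 (50.9 to 59.8), and the intervals of both overlapped that of cluster 4. The 814 tetYAP 4W barcodes outside the hepatocyte-like class carried 80.4% of Malat1 and 54.9% of all UMIs of the library, and the 178 of the control carried 31.9% and 7.58%. The 20 control barcodes of the neutrophil or monocyte-like cluster carried more T or NK cell markers than markers of that class and are not compared between libraries.

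**Figure D2:**
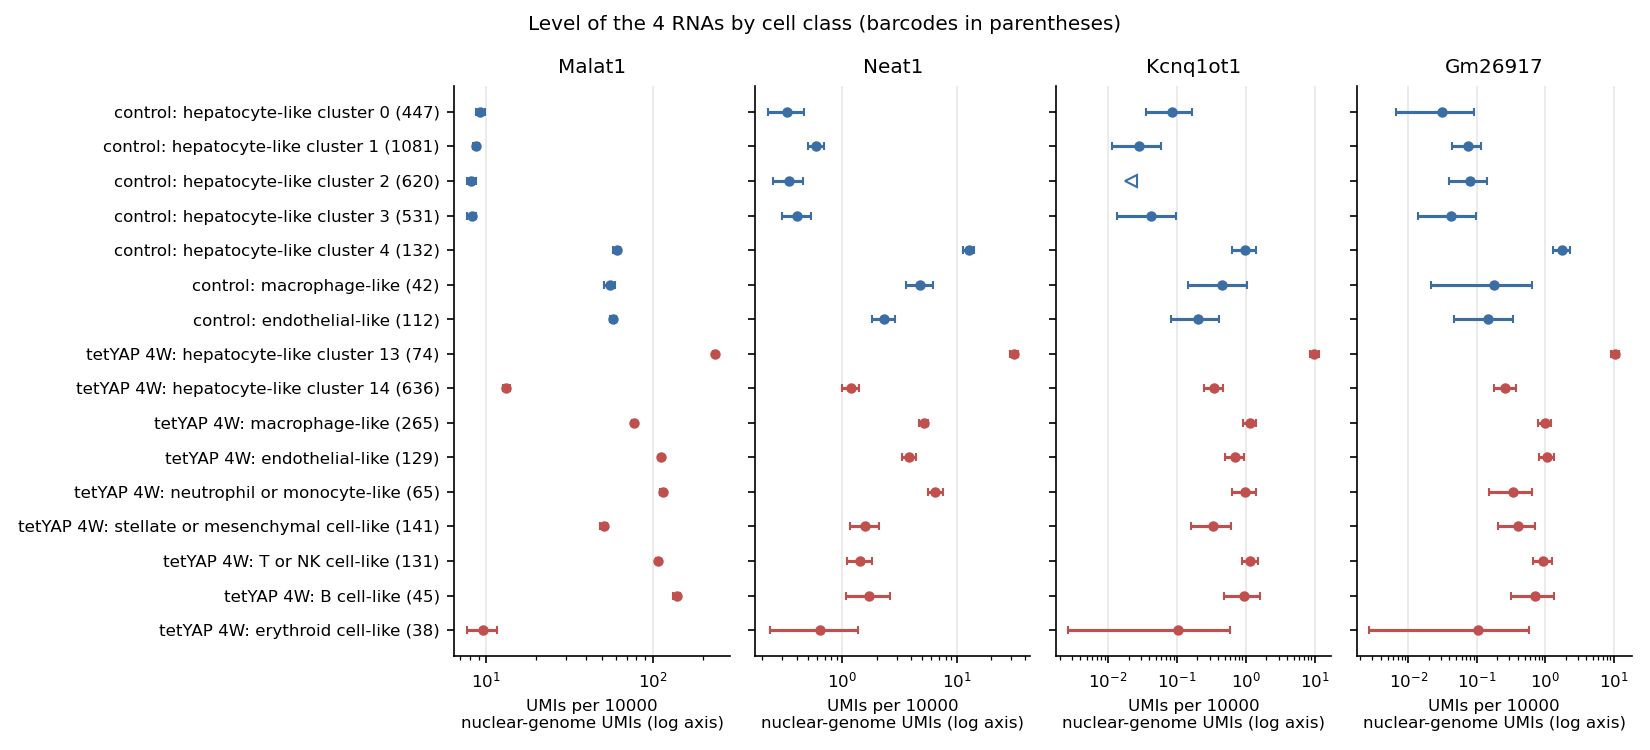
UMIs per 10000 nuclear-genome UMIs (horizontal log axes) of the 4 RNAs in groups of barcodes, control in blue and tetYAP 4W in red, with exact 95% counting intervals, where an open triangle stands for 0 UMIs, drawn at the limit of 3 UMIs that such a count allows. Clusters 4 and 13 stand above the other hepatocyte-like clusters of their library for all 4 RNAs, and cluster 13 is the highest group for each of them.

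Neat1 followed another order over the classes. It was highest in the Malat1-rich clusters, at 12.7 per 10000 nuclear-genome UMIs (11.4 to 14.1) in cluster 4 and 31.8 (29.2 to 34.4) in cluster 13, which held 45.7% and 34.8% of the Neat1 UMIs of their libraries. In tetYAP 4W neutrophil or monocyte-like barcodes came next at 6.5 (5.57 to 7.53) and overlapped macrophage-like ones at 5.16 (4.67 to 5.68). Endothelial-like barcodes held 3.85 (3.36 to 4.38). B cell-like barcodes, with more Malat1 than any of these, held Neat1 at only 1.72 (1.08 to 2.60). They did not stand apart from stellate or mesenchymal cell-like barcodes at 1.58 (1.16 to 2.09), T or NK cell-like at 1.43 (1.11 to 1.81) or cluster 14 at 1.19 (1.0 to 1.40). The erythroid-like background was 6 UMIs, or 0.634 (0.233 to 1.38). In the control, macrophage-like barcodes held 4.78 (3.58 to 6.26), endothelial-like 2.31 (1.83 to 2.88) and clusters 0 to 3 between 0.327 and 0.592.

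The number of Neat1 UMIs per 100 Malat1 UMIs brings out this difference, and it is compared between classes and not read as the relative amount of the RNAs. It was lowest in lymphoid classes, at 1.23 (0.768 to 1.87) in B cell-like and 1.33 (1.03 to 1.69) in T or NK cell-like barcodes. Endothelial-like barcodes held 3.99 (3.15 to 4.99) in the control and 3.41 (2.97 to 3.89) in tetYAP 4W, and macrophage-like barcodes 8.66 (6.41 to 11.5) and 6.67 (6.02 to 7.37). In both classes the intervals of the libraries overlapped. The Malat1-rich clusters were highest, at 20.9 (18.5 to 23.4) in cluster 4 and 13.4 (12.3 to 14.6) in cluster 13, and their intervals did not overlap.

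**Figure D3:**
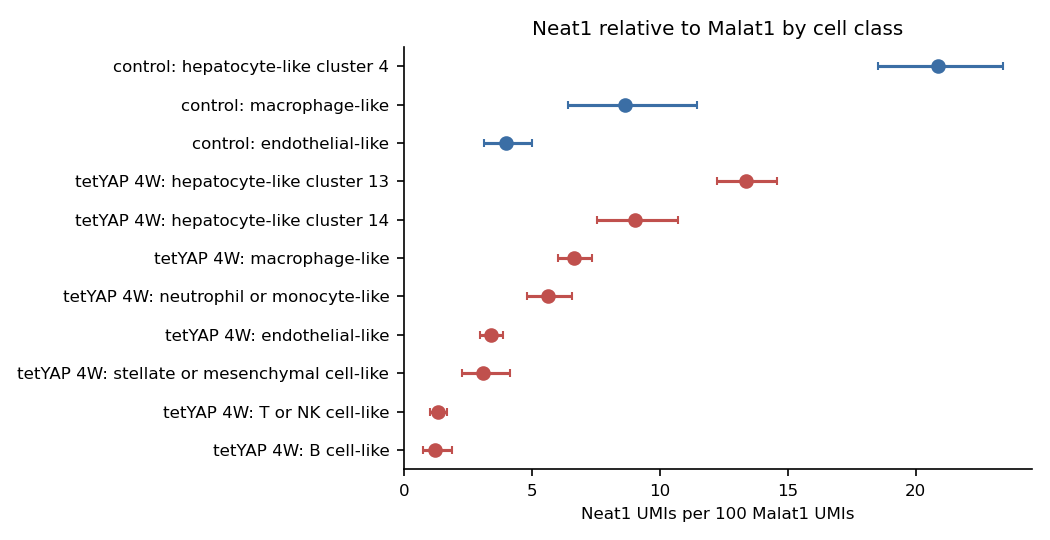
Neat1 UMIs per 100 Malat1 UMIs (horizontal axis) in groups of barcodes, control in blue and tetYAP 4W in red, with exact 95% counting intervals. B cell-like and T or NK cell-like barcodes lie lowest, at 1.23 and 1.33, and cluster 4 of the control highest, at 20.9.

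Kcnq1ot1 and Gm26917 were sparse and gathered in the same clusters. Kcnq1ot1 gave 64 UMIs in the control and 463 in tetYAP 4W, and Gm26917 gave 98 and 443. Cluster 4, with 4.39% of the UMIs of the control, held 42.2% of its Kcnq1ot1 UMIs and 49 of its 98 Gm26917 UMIs. Cluster 13, with 4.47% of the UMIs of tetYAP 4W, held 39.7% and 44.2%. Per 10000 nuclear-genome UMIs, Kcnq1ot1 was at 0.977 (0.644 to 1.42) in cluster 4 and 9.94 (8.55 to 11.5) in cluster 13, and Gm26917 at 1.77 (1.31 to 2.34) and 10.6 (9.16 to 12.2). In the other classes of tetYAP 4W, Kcnq1ot1 ran from 0.335 in stellate or mesenchymal cell-like to 1.18 in T or NK cell-like barcodes, and Gm26917 from 0.334 in neutrophil or monocyte-like to 1.06 in endothelial-like barcodes, apart from 1 UMI of each in erythroid-like barcodes. In control cluster 2, Kcnq1ot1 gave 0 UMIs in 620 barcodes, where a count of 0 allows up to 3.

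Kcnq1ot1 overlaps Kcnq1 on the other strand, and whether the counting used strand is not given in the sources used here, so reads of this gene pair cannot be told apart. Kcnq1 gave 11 UMIs in the control and 32 in tetYAP 4W. Of the 11 protein-coding neighbours listed for the domain, 5 had 10 or more UMIs over the hepatocyte-like barcodes of both libraries. Among them Cd81, which encodes a tetraspanin, stood at a log2 ratio of CPM (tetYAP 4W over control) of -0.19 (-0.32 to -0.063), Slc22a18 at 0.49 (0.26 to 0.72) and Nap1l4 at 0.23 (-0.28 to 0.71). Cdkn1c, which encodes a cyclin-dependent kinase inhibitor, had 7 UMIs there in the control and 5 in tetYAP 4W. Its log2 ratio of CPM was 1.04 (-0.96 to 2.91), the only 1 of these 5 past 2-fold, and its interval included no change. Of all 10813 genes counted there, 16% were 2-fold or more higher and 18.1% lower. Over all barcodes 8 of the neighbours had 10 or more UMIs, and 5 were 2-fold or more higher and 0 lower. Of all 12621 such genes 38.3% were 2-fold or more higher and 7.92% lower, at a median of 0.60. The mix of cell classes also differed between the libraries. Among the neighbours Cdkn1c stood at 1.79 (0.95 to 2.70) and Kcnq1 at 2.03.

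The design asks how the induced liver differs from the control. Over all barcodes every member was higher in tetYAP 4W. Malat1 gave 30393 UMIs (4485 CPM) against 9988 (1050.3 CPM), a log2 ratio of 2.09 (2.06 to 2.13). Neat1 gave 1688 UMIs against 771, a log2 ratio of 1.62 (1.5 to 1.74), and Kcnq1ot1 and Gm26917 stood at 3.34 (2.96 to 3.74) and 2.67 (2.35 to 3.0). All 4 members were 2-fold or more higher, as were 38.3% of the 12621 genes with 10 or more UMIs, while 7.92% were 2-fold or more lower, with a median of 0.60 over those genes. Per nuclear-genome UMI these shares were 45.7% and 4.93%, at a median of 0.86. The cell classes moved with this difference, since 94.0% of control and 46.6% of tetYAP 4W barcodes were hepatocyte-like.

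Within hepatocyte-like barcodes, that is clusters 0 to 4 against clusters 13 and 14, Malat1 was at 774 CPM in the control and 1954 in tetYAP 4W, a log2 ratio of 1.34 (1.29 to 1.39). This value depends on the barcodes taken: it was 3.70 without barcodes above 30% mitochondrial UMIs and 4.32 at Leiden resolution 0.4, which called 70 instead of 710 tetYAP 4W barcodes hepatocyte-like. The ratio was 1.75 (1.60 to 1.91) for Neat1, 3.78 (3.32 to 4.27) for Kcnq1ot1 and 2.92 (2.56 to 3.30) for Gm26917. All 4 were 2-fold or more higher, as were 16% of 10813 genes, and 18.1% were as much lower, at a median of -0.20. Median mitochondrial shares were 28.2% in the control and 57.7% in tetYAP 4W. Per nuclear-genome UMI the ratios were 1.99, 2.41, 4.44 and 3.58, with 30.1% of genes 2-fold or more higher, 4.13% lower and a median of 0.46.

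The Malat1 difference within the class was also taken without the Malat1-rich clusters. These were picked by their Malat1, so leaving them out had to lower the Malat1 level of each library, and the values are descriptions. Without them the log2 ratio of CPM was -0.094 (-0.18 to -0.012) for Malat1, 0.67 (0.37 to 0.97) for Neat1, 2.64 (1.84 to 3.49) for Kcnq1ot1 and 1.35 (0.61 to 2.08) for Gm26917. Per nuclear-genome UMI, the Malat1 ratio of cluster 14 over clusters 0 to 3 was 0.62 (0.54 to 0.71), at a median of 0.21 over all genes, so its sign changed with the scale. On that scale Neat1, Kcnq1ot1 and Gm26917 stood at 1.39, 3.36 and 2.07, and 22.9% of genes were 2-fold or more higher and 5.92% lower. Between the Malat1-rich clusters, 13 over 4, the ratios per nuclear-genome UMI were 1.96 (1.88 to 2.04) for Malat1, 1.32 (1.13 to 1.51) for Neat1, 3.35 (2.76 to 3.99) for Kcnq1ot1 and 2.58 (2.12 to 3.06) for Gm26917, and 28.5% of genes were 2-fold or more higher and 10.3% lower at a median of 0.36. Leaving out the barcode with the most Malat1 in each library lowered the Malat1 ratio of the whole class from 1.34 to 1.18.

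In the other classes that both libraries held, differences in Malat1 and Neat1 were smaller than in the whole hepatocyte-like class. Without the Malat1-rich clusters the hepatocyte-like log2 ratios of CPM were -0.094 and 0.67, so for Malat1 this order holds for the whole class only. In endothelial-like barcodes (112 in the control, 129 in tetYAP 4W) the log2 ratio of CPM was 0.995 (0.92 to 1.07) for Malat1, just under 2-fold, and 0.77 (0.39 to 1.15) for Neat1. Kcnq1ot1 stood at 1.83 (0.65 to 3.23) and Gm26917 at 2.91 (1.61 to 4.58), from 7 and 5 control UMIs. These 2 members were past 2-fold, with 31% of 8546 genes, while 7.8% were as much lower, at a median of 0.53. In macrophage-like barcodes (42 and 265) Malat1 stood at 0.43 (0.31 to 0.55) and Neat1 at 0.050 (-0.36 to 0.49), at a median of 0.14 over all genes. Kcnq1ot1 stood at 1.28 (0.0084 to 2.94) and Gm26917 at 2.39 (0.48 to 5.46), from 5 and 2 control UMIs, and 13% of 8249 genes were 2-fold or more higher and 11.3% lower.

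Other RNAs of the nucleus were higher in the Malat1-rich clusters as well. The clusters were formed on the counts of these genes, so the following ratios, each the level per nuclear-genome UMI in the Malat1-rich cluster over that in the other hepatocyte-like clusters of the library, are descriptions. Neat1, Kcnq1ot1 and Gm26917, which the clustering did not use, stood at 4.81, 4.87 and 4.84 in the control and at 4.74, 4.85 and 5.35 in tetYAP 4W, beside 2.83 and 4.17 for Malat1. Of genes with 10 or more UMIs, 33.7% in the control and 39.2% in tetYAP 4W were 2-fold or more higher there and 3% and 6.25% lower, at medians of 0.58 and 0.59. Many of these genes were expected at under 1 UMI in the small clusters, and of those with 200 or more UMIs (2771 and 890 genes) 13.4% and 7.3% were higher and 3.18% and 5.28% lower, at medians of 0.17 and -0.43. All 15 listed mRNAs known for nuclear retention or detained introns were 2-fold or more higher in both libraries, at medians of 2.46 and 3.41. The list was chosen with earlier results of these data known. It includes Pnisr and Mlxipl, both leading genes of cluster 4, so the count is no independent support. Rsrp1, an SR-related gene, stood at 1.26 and 2.80, Rbm39, a splicing factor gene, at 1.34 and 2.45, Srsf5 at 1.95 and 3.33, and Ddx17, which encodes an RNA helicase, at 2.74 and 3.16. Mlxipl, which encodes the carbohydrate-responsive factor ChREBP and whose mRNA is known to be held in hepatocyte nuclei, gave 148 UMIs in the 132 barcodes of cluster 4 against 275 in the other 2679 of the control, a ratio of 3.54 (3.24 to 3.83), and stood at 5.05 (4.60 to 5.52) in tetYAP 4W.

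Genes for the proteins of the nuclear bodies were less extreme. Of 13 speckle protein genes, 9 in the control and 12 in tetYAP 4W were 2-fold or more higher, at medians of 1.14 and 2.09. Over all genes the shares were 33.7% and 39.2%, or 13.4% and 7.3% of those with 200 or more UMIs. The lists of this paragraph were also chosen with earlier results of these data known. Son, the scaffold of speckles, stood at 1.36 and 2.52, Srsf2 at 1.68 and 2.34 and Srrm2 at 1.54 and 1.77, while Srsf3 stood at 0.28 and 0.12. Of 15 paraspeckle protein genes 11 and 12 were past 2-fold, at medians of 1.28 and 1.92. Sfpq stood at 1.30 and 1.92, Nono at 0.68 and 0.69 and Hnrnpk at 0.59 and 0.44. Of the other listed lncRNAs, 2 of 3 with 10 or more UMIs in the control (Tug1 and Jpx, not Pvt1) and 2 of 2 in tetYAP 4W (Tug1 and Airn) were past 2-fold, Tug1 at 1.97 and 1.54. Of 3 snoRNA host or cytoplasmic lncRNAs only Snhg12 was 2-fold or more higher, at 2.03 and 4.27, while Snhg6 stood at 0.50 and -0.068 and Epb41l4aos at -0.70 and, from 1 UMI in cluster 13, -2.12 (-7.47 to 0.48). Airn, Pvt1 and Jpx are named after their values were seen where they fall outside the rule for named genes.

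Abundant liver mRNAs were not among them. Of 16 listed, 0 were 2-fold or more higher in either library, and 0 in the control and 2 in tetYAP 4W were as much lower, at medians of -0.36 and -0.73 and ranges of -0.71 to 0.56 and -1.14 to -0.50. The 2 were Alb and Trf, the latter named after its values were seen. Of all genes with 200 or more UMIs, 13.4% in the control and 7.3% in tetYAP 4W were higher and 3.18% and 5.28% lower. Their medians were 0.17 and -0.43. Counts of 0 and 2 among 16 are not read as a difference from these shares. Alb stood at -0.30 and -1.0, Apoe at -0.70 and -0.99, Apoa2 at -0.62 and -0.75 and Ttr at -0.71 and -0.68. Gm42418 and AY036118, which lie at the copy of the 45S ribosomal RNA gene on chromosome 17, stood at -0.38 and -0.63 in the control and at 0.40 and -0.37 in tetYAP 4W. Between the libraries these 2 genes stood at log2 ratios of CPM of -0.76 and -0.76 in hepatocyte-like barcodes, where the 4 members were higher. Per nuclear-genome UMI they stood close to no change, at -0.10 and -0.10, at a median of 0.46 over all genes.

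**Figure D4:**
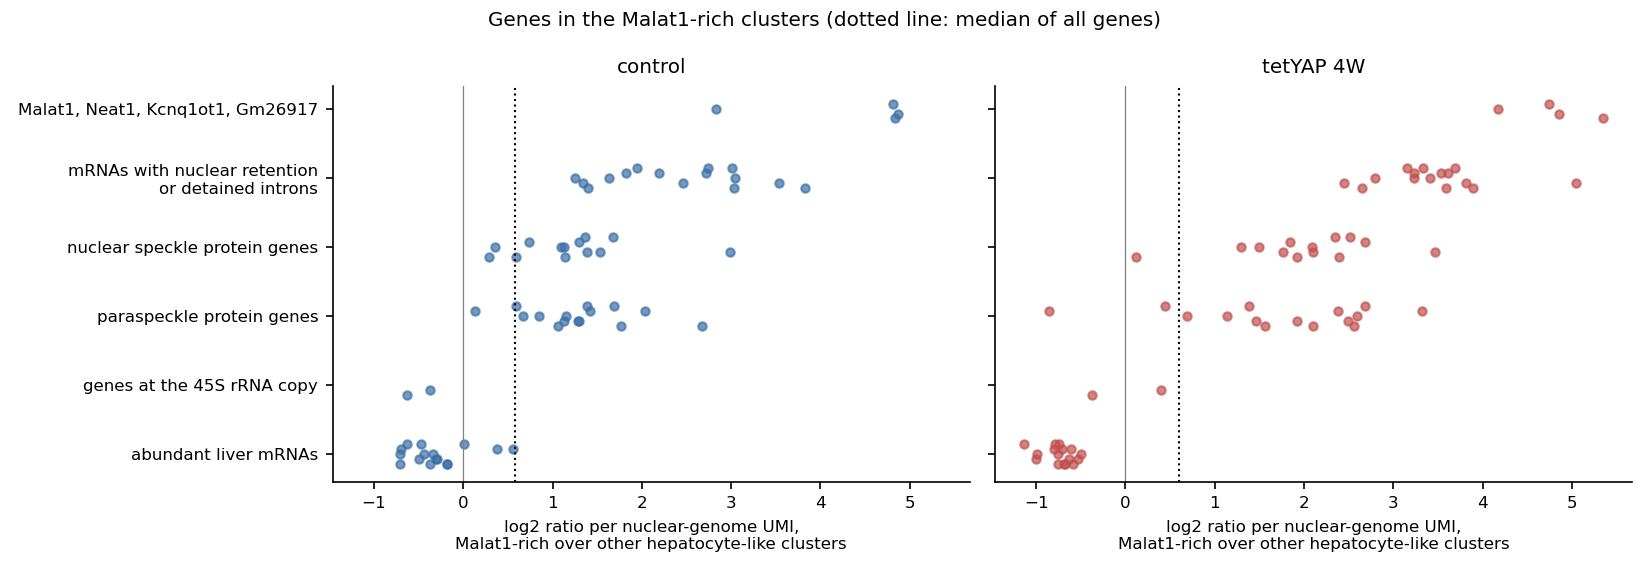
Log2 ratio of the level per nuclear-genome UMI in the Malat1-rich cluster over the other hepatocyte-like clusters (horizontal axis), with 1 point per gene by gene list, control at left and tetYAP 4W at right, and the median of all genes as a dotted line. The members and all 15 mRNAs with nuclear retention or detained introns lie right of that line in both libraries, and the abundant liver mRNAs lie left of it.

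Markers of other cell types were counted in the Malat1-rich clusters. The endothelial marker list was at 2.35 per 10000 nuclear-genome UMIs in cluster 4, against 1.38 to 1.40 in clusters 0 to 3, and at 2.21 in cluster 13, against 4.86 in cluster 14. The macrophage list was at 0.651 in cluster 4, against 0.498 to 0.582, and at 14.5 in cluster 13, against 18.1. The summed cholangiocyte list was higher in both, at 3.26 against 1.34 in the control and 15 against 3.88 in tetYAP 4W. Sorbs2 gave 63 of the 90 cholangiocyte marker UMIs of cluster 4 and 241 of the 277 of cluster 13, and Krt19, Krt7, Epcam and Cftr were at 0 in both. Sox9 stood at 0.289 against 0.0821 in the control, from 8 and 49 UMIs. In tetYAP 4W it stood at 0.108 against 0.0335, from only 2 and 4 UMIs. Spp1 was at 0.0362 against 0.0670 and 1.62 against 2.43, from 1 UMI in cluster 4 and 30 in cluster 13. Tstd1 was at 0.651 against 0.811 and 0.216 against 0.260, from 18 UMIs in cluster 4 and 4 in cluster 13. The part of doublets and of free RNA in these clusters was not tested.

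In tetYAP 4W hepatocyte-like barcodes the Malat1 level, pooled over the barcodes of a bin, was lower at higher mitochondrial shares up to 60%. Per 10000 nuclear-genome UMIs it was 207 in the 20 barcodes with 10 to 20% mitochondrial UMIs, 99.7 in 72 barcodes with 20 to 30%, 54.7 in 60 with 30 to 40%, 19.8 in 71 with 40 to 50% and 13.9 in 201 with 50 to 60%, and 18.3 in the 284 above. Neat1 ran from 23.6 in the first of these bins to 0.838 at 50 to 60%, and stood at 1.71 above. In that first bin 1 barcode, the one with the most Malat1, held 752 of the 1386 Malat1 and 52 of the 158 Neat1 UMIs. In the control the range was smaller up to 50%, with Malat1 at 15.8 (14.7 to 17.0) in 191 barcodes with 10 to 20%, 10.5 in 1528, 9.42 (9.0 to 9.85) in 945 and 12.5 in 97 with 40 to 50%. Neat1 stood at 1.92, 0.904, 0.674 and 2.16 in these bins. The 30 control barcodes above 60% stood at 94.5 (81.4 to 109) for Malat1 and 15.7 (10.6 to 22.2) for Neat1, and they were shallow, with a median of 606 nuclear-genome UMIs. In the other classes of tetYAP 4W Malat1 went from 136 in 20 barcodes under 10% to 36.0 in 29 barcodes at 50 to 60%. Across single hepatocyte-like barcodes the relation was weak. The Spearman correlation of Malat1 with mitochondrial share was -0.053 in tetYAP 4W (Pearson, on log levels, -0.19) and 0.063 in the control (Pearson 0.11). For Neat1 the Spearman correlation was -0.21 in tetYAP 4W and 0.029 in the control.

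**Figure D5:**
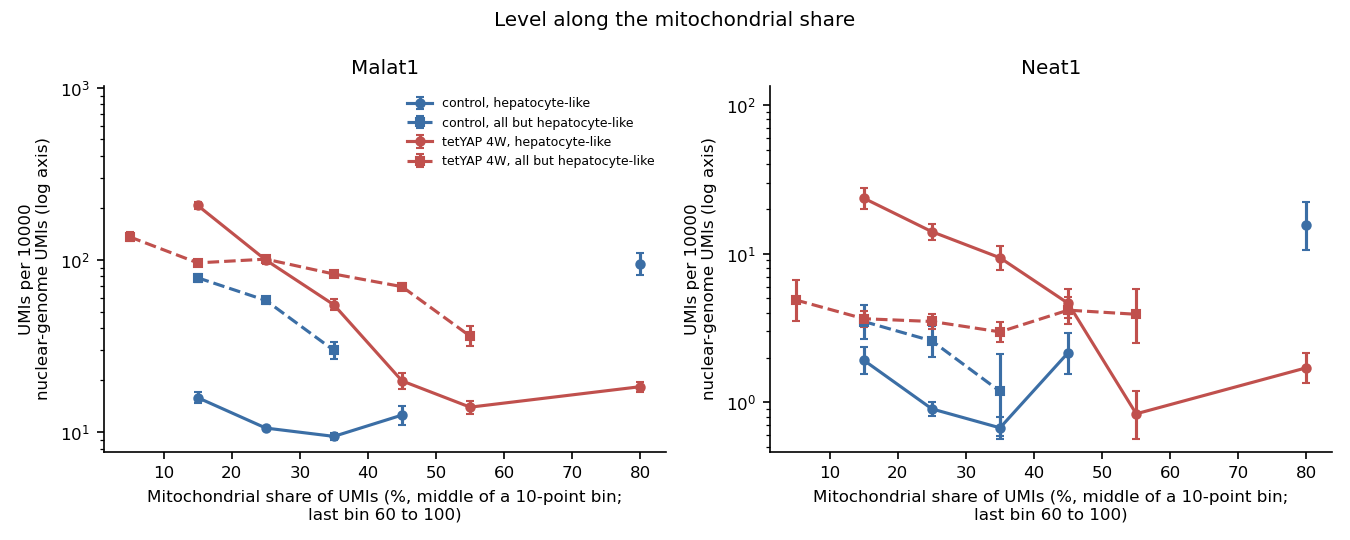
UMIs per 10000 nuclear-genome UMIs (vertical log axes) of Malat1 and Neat1 by the mitochondrial share of the barcode in bins of 10 points (horizontal axis, the last bin from 60 to 100%), for hepatocyte-like and other barcodes of both libraries, with exact 95% counting intervals and bins of under 20 barcodes left out. The hepatocyte-like line of tetYAP 4W goes from 207 to 13.9 for Malat1 before its last bin, and that of the control lies between 9.42 and 15.8 before its last bin at 94.5. In the bin at 207, 1 barcode held 752 of the 1386 Malat1 UMIs.

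Set as a contrast, the 237 tetYAP 4W hepatocyte-like barcodes with the lowest mitochondrial shares (up to 50.9%) were compared with the 237 with the highest (from 61.5%). The log2 ratio per nuclear-genome UMI was 2.14 (2.02 to 2.25) for Malat1, 2.71 (2.33 to 3.11) for Neat1, 2.52 (1.87 to 3.25) for Kcnq1ot1 and 2.12 (1.53 to 2.76) for Gm26917. All 4 were past 2-fold, as were 24.7% of 7736 genes, while 3.04% were as much lower, at a median of 0.41. Of the 15 mRNAs with nuclear retention or detained introns 13 were past 2-fold, at a median of 1.38. In the control, 937 barcodes on each side (up to 25.9% and from 30.8%) gave 0.22 (0.14 to 0.30) for Malat1, 0.45 (0.19 to 0.73) for Neat1, 0.74 (-0.28 to 1.83) for Kcnq1ot1 and 0.96 (0.19 to 1.78) for Gm26917. Past 2-fold were 0 of 4, against 2.95% of 9150 genes higher and 2.7% lower. Without the Malat1-rich clusters the Malat1 contrast was -0.10 (-0.28 to 0.079) in tetYAP 4W and -0.15 (-0.25 to -0.052) in the control. Its positive sign was thus not kept in either library once these clusters, picked by their Malat1, were left out.

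Read in the other direction, the median mitochondrial share of tetYAP 4W hepatocyte-like barcodes was 59.4% in the 75 with 0 Malat1 UMIs, 58.3% in the 305 with 1 to 2 and 59.7% in the 184 with 3 to 4. It was 51.3% in the 82 with 5 to 9 Malat1 UMIs, 42.0% in the 32 with 10 to 29 and 23.9% in the 32 with 30 or more. In the control it stayed between 27.6% and 28.3% up to 29 Malat1 UMIs and was 22.8% in the 18 barcodes with 30 or more. The median number of genes per barcode went from 785 with 0 Malat1 UMIs to 1669 with 30 or more in tetYAP 4W, and from 889 to 1604 in the control.

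Over hepatocyte-like barcodes, genes were ranked by the Pearson correlation of log levels with Malat1, as a description of barcodes that share a library and depth. In tetYAP 4W (710 barcodes, 2061 genes) the 5 most alike were Gm26917 at 0.54, Xist at 0.53, Luc7l2 at 0.50, Neat1 at 0.48 and Mlxipl at 0.46. Xist is the nuclear lncRNA of X inactivation and Luc7l2 encodes a splicing factor. For Neat1 they were Gm26917 at 0.65, Xist at 0.59, Kcnq1ot1 at 0.56, Luc7l2 at 0.56 and Mlxipl at 0.55, and Alb was the least alike for both, at -0.40 and -0.52. In the control (2811 barcodes, 2060 genes) coefficients were weak, the highest being 0.16 for Malat1 with Neat1 and 0.26 for Neat1 with Mlxipl, and are not read further.

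Across 12 groups of barcodes, each a class in a library with at least 20 barcodes, the ranking was another one. Among 7814 genes those most like Malat1 were Tra2a at 0.98, Prpf38b at 0.98, Ankrd44 at 0.98, Nin at 0.97 and Tra2b at 0.97, of which Tra2a, Tra2b and Prpf38b encode splicing factors. Neat1 was far down that list, in place 2108 with 0.62. The genes most like Neat1 were 5031439G07Rik at 0.90, Mbtps1 at 0.89, Tmem164 at 0.88, Fam49a at 0.88 and Tmem259 at 0.87.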

How the data were processed

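Single-cell libraries of perfused mouse liver were made with droplet 3′ kits, 1 library per group. The authors deposited raw UMI counts per gene and barcode, made with Cell Ranger on mm10, and, by their methods, down-sampled the cells of each condition and removed barcodes of high UMI count. The labels also name Seurat 3. Depth was 9509885 UMIs in the control and 6777210 in tetYAP 4W, and counting intervals are narrow for Malat1 and wide for the sparse members. Barcodes were clustered with scanpy 1.11.5 (2000 variable genes, 20 components, 15 neighbours, Leiden resolution 0.8). A class name needed 3 markers with 10 UMIs or more at 3-fold over the other barcodes of the library, and led those of other classes. Counts were summed, and log2 ratios were given exact conditional binomial intervals (scipy 1.17.1). A count of 0 stood at 3 UMIs and placed a gene past 2-fold in its own direction only. No test was run, since each group held 1 library. Scaling by TMM used edgeR 4.0.16 in R 4.3.3. The scripts were tested on simulated data.

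Members, gene lists and markers were chosen with earlier results of these data known. The text names the 4 members, of each list up to 4 genes with the most UMIs over both libraries, and the 5 genes most like Malat1 and Neat1. Of these, 1 gene is not reported here. Likeness over barcodes used genes found in 10% of them, and likeness over groups used log2(CPM + 1) of genes with 100 UMIs or more. The limit of 200 UMIs for well-counted genes was chosen after seeing the data. Alternatives changed the scaling, the barcodes, the clustering, the thinning and the minimum count. RefSeq tables gave loci for 3 members and start regions for 2.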

Additional observations from a re-analysis of the deposited data

How the results depend on the processing

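Of 90 alternative values, 35 moved by less than counting error (for shares of genes, by under 1.5 times), 52 moved further and 3 changed sign. The Malat1 log2 ratio over all barcodes (2.09) was 2.36 per nuclear-genome UMI, 1.53 under both TMM and median-of-ratios scaling, 2.74 without barcodes above 30% mitochondrial UMIs and 2.18 with barcodes weighted equally. That of Neat1 (1.62) was 1.88, 1.06 under both, 2.18 and 1.81. Within hepatocyte-like barcodes Malat1 (1.34) was 1.99 per nuclear-genome UMI, 1.45 by TMM, 1.40 by median-of-ratios, 3.70 without barcodes above 30%, 1.58 with members and mitochondrial genes kept in the clustering and 4.32 at Leiden resolution 0.4. Neat1 (1.75) was 2.41, 4.05 without barcodes above 30%, 1.97 with equal weights, 2.04 with those genes kept and 4.85 at resolution 0.4. At that resolution only 70 tetYAP 4W barcodes were called hepatocyte-like, against 710. Alternatives added after seeing the data used the Malat1-rich clusters alone (Malat1 1.84, Neat1 1.2), left them out (Malat1 -0.094, Neat1 0.67) or left out the leading barcode of each library (Malat1 1.18). Kcnq1ot1 and Gm26917 stayed positive in all 32 of their alternatives, from 1.35 to 6.91.

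The Malat1 contrast by mitochondrial UMIs (control 0.22, tetYAP 4W 2.14) was 0.51 and 3.19 per UMI of all genes, 0.41 and 2.36 with 3000 UMIs or more, and -0.15 and -0.10 without the Malat1-rich clusters. In tetYAP 4W it was 1.82 between barcodes below and above the median share and 2.54 with members and mitochondrial genes kept. Barcodes without Malat1 made up 73.0% of the control (56.9%) and 66.3% of tetYAP 4W (52.5%) at 500 UMIs, 44.9% and 26.9% at 1000 nuclear-genome UMIs, 18.8% and 10.6% unthinned, and 5.71% in tetYAP 4W at resolution 0.4. Apart from the smaller barcode sets named, the cause was not tested. No paired analysis was possible because each group held 1 library. Depth limits Kcnq1ot1 and Gm26917 most, and the single library per group limits every comparison.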

Other observations

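In tetYAP 4W the macrophage-like barcodes fell into 2 clusters that differed in Neat1 per 100 Malat1 UMIs, at 8.24 (7.28 to 9.30) in the 114 barcodes of cluster 9, with Cxcl13 and Spic among its leading genes, and 4.67 (3.88 to 5.58) in the 151 of cluster 11, with Cd209f and Trem2 among them. These clusters had 22.3% and 36.8% mitochondrial UMIs at the median, and its part in the difference was not tested.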
